A study of Homo sapiens with 33 samples.

Results

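Gene expression in DMSO-treated NB4 cells after 120 h of culture was compared with that after 72 h. NB4 is an established human cell line from acute promyelocytic leukaemia, a disease in which a fusion of PML with the retinoic acid receptor RARA holds myeloid cells at the promyelocyte stage. DMSO is the solvent of all-trans retinoic acid (ATRA), the drug that releases this block, so these cultures are the study's controls and any change in them is a change of control cells with time in culture. The comparison used 6 of the 33 libraries of the series: 3 of NB4 cells given DMSO for 120 h and 3 of NB4 cells given DMSO for 72 h, chosen by the treatment and time in their labels. All 33 libraries came from the same line, with no genetic change between groups. The others whose values are given were 3 libraries of DMSO cells at 24 h, 3 of cells given 1 µM ATRA for 120 h and 3 of cells given 1 µM ATRA for 72 h, all in the same medium with 10% serum. The remaining 18 libraries, 3 each of ATRA cells and of DMSO cells at 4 h and 12 h, of ATRA cells at 24 h and of untreated cells, entered the joint model, and the untreated and early DMSO ones also served to choose a set of genes named below. Medium with fresh drug or solvent was added to the cultures on day 3, and the labels do not say whether the cells taken at 72 h were harvested before or after that addition. The labels call the 3 replicates of a group biological, and p-values measure the spread between these cultures of 1 line.

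A suspension culture that is not fed uses up amino acids and glucose and gathers acid and lactate as its density grows. Cells answer a shortage of amino acids through the kinase GCN2 and the transcription factor ATF4, a shortage of oxygen through HIF1, and a loss of growth signals by slowing the cycle through the retinoblastoma protein and E2F factors. Fresh serum restores nutrients and growth factors, and its first transcriptional mark is the immediate early genes, such as EGR1 and JUN. Neither density nor any metabolite is given in the labels, and the part of medium, density and time in the changes below was not tested.

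The 6 libraries held between 20909952 and 28504937 fragments assigned to genes, and all 33 between 18341456 and 33490654. In a principal component analysis of the 9 DMSO libraries at 24 h, 72 h and 120 h, the first component held 48.2% of the variance and placed the 24 h libraries between -55.8 and -50.3, the 72 h libraries between 61.4 and 63.2 and the 120 h libraries between -12.4 and -5.8. The second component, with 15.7%, placed the 120 h libraries between -41.4 and -33.5 and the other 6 between 9.7 and 27.4. On the third component, with 7.97%, replicate 2 at 72 h stood apart from the other DMSO libraries, at 43.9, against -20.5 and -26 for its fellow replicates. At both times replicate 2 came from lane 2 and the others from lane 3, so both lanes held libraries of both times. Levels are given in CPM, counts normalised to scaled library size. Among 10 markers of promyelocytes and myeloid lines none was at 0 in all 6 libraries, and of 9 tested 4 rose and 3 fell. Their summed level, most of it MPO, was 9895.5 to 12068 CPM at 120 h, against 9998.8 to 10440 CPM at 72 h. Of 7 tested markers of monocytes and macrophages 1 rose and 2 fell, and the list summed to 41.4 to 45.5 CPM at 120 h, against 38.4 to 45.4 CPM at 72 h, with MRC1 at 0 in all 6 libraries. Erythroid and megakaryocyte markers summed to 3.29 to 3.7 CPM at 120 h, against 4.47 to 4.94 CPM at 72 h, with HBA1, HBB, ALAS2 and PF4 among those at 0 in all 6 libraries. Lymphocyte markers, of which none of 5 tested passed, summed to 45.2 to 60.8 CPM at 120 h, against 50.3 to 55.8 CPM at 72 h. Of 5 tested markers of epithelium and fibroblasts 3 fell and none rose, and that list summed to 24.02 to 25.7 CPM at 120 h, against 23.5 to 27.6 CPM at 72 h. The summed level of 10 genes that were below 0.1 CPM on average in untreated cells and DMSO cells at 4 h and 12 h, and above 50 CPM on average with ATRA at 72 h was 9.59 to 13.9 CPM in DMSO cells at 120 h, against 6.38 to 7.98 CPM at 72 h. With ATRA the same sum was 929.85 to 1068.1 CPM at 120 h, against 1128.7 to 1265.7 CPM at 72 h. The part of these genes and of the markers in the results was not tested.

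Of 22971 genes tested, 9379 (40.8%) differed between 120 h and 72 h at a Benjamini-Hochberg adjusted p under 0.05 in edgeR's quasi-likelihood test. At 120 h, 5078 genes (22.1% of all tested) were higher and 4301 (18.7% of all tested) lower. Every adjusted p below is from this test over all tested genes, and log2 changes are of 120 h over 72 h and given ± SE. Most of the changes were small: 824 genes (3.59%) were at least 2-fold higher and 1219 (5.31%) at least 2-fold lower. For 11485 genes (50%) the 3 values at 120 h did not overlap with the 3 at 72 h. The median log2 change over all tested genes was 0.01. Among 13418 protein-coding genes tested, 4029 rose and 2947 fell, while among 3154 long non-coding genes 357 rose and 604 fell. In bulk RNA, fewer cells of a kind and less RNA per cell cannot be told apart.

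**Figure D1:**
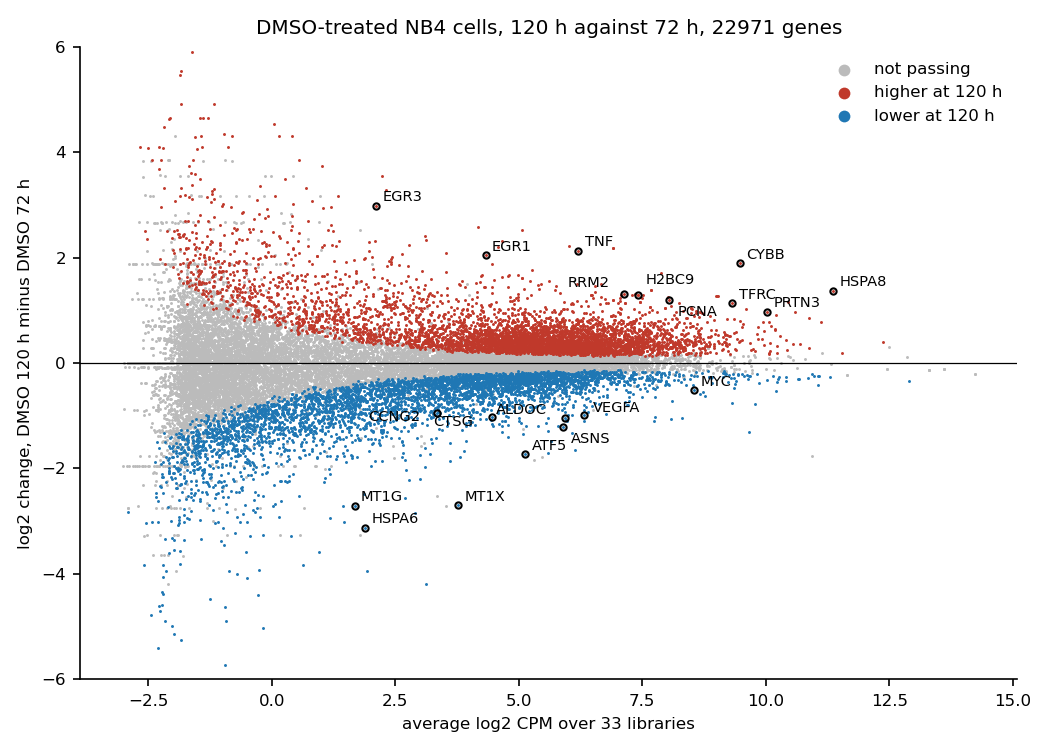
Each point is 1 of the tested genes, with its average level over all 33 libraries (log2 CPM) across the page and its log2 change in DMSO cells at 120 h against 72 h up the page. Red points rose and blue points fell at an adjusted p under 0.05, grey points did not pass, and circles mark named genes. CYBB, HSPA8, TFRC and PCNA lie high among well expressed genes, while ATF5, MT1X and MT1G lie low.

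The share of members passing the test is to be set beside the background of 22.1% of all tested genes higher and 18.7% lower. A list's median is to be set beside the 0.01 of all genes. Protein-coding genes, of which the lists are mostly made, passed more often than all genes, 52% of 13418 against 40.8%. Of them 4029 rose and 2947 fell, so the background of all genes is low for such lists. Lists for S phase, histones, mitosis, ribosome assembly, chaperones, the phagocyte oxidase and immediate early genes held mostly genes that rose. Of amino acid starvation genes 14 of 23 fell, of aminoacyl-tRNA synthetases 11 of 20, of the MYC list 6 of 11 and of cytosolic ribosomal proteins 15 of 30. All 22971 genes serve as the background, and the lists were not tested as sets.

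**Figure D2:**
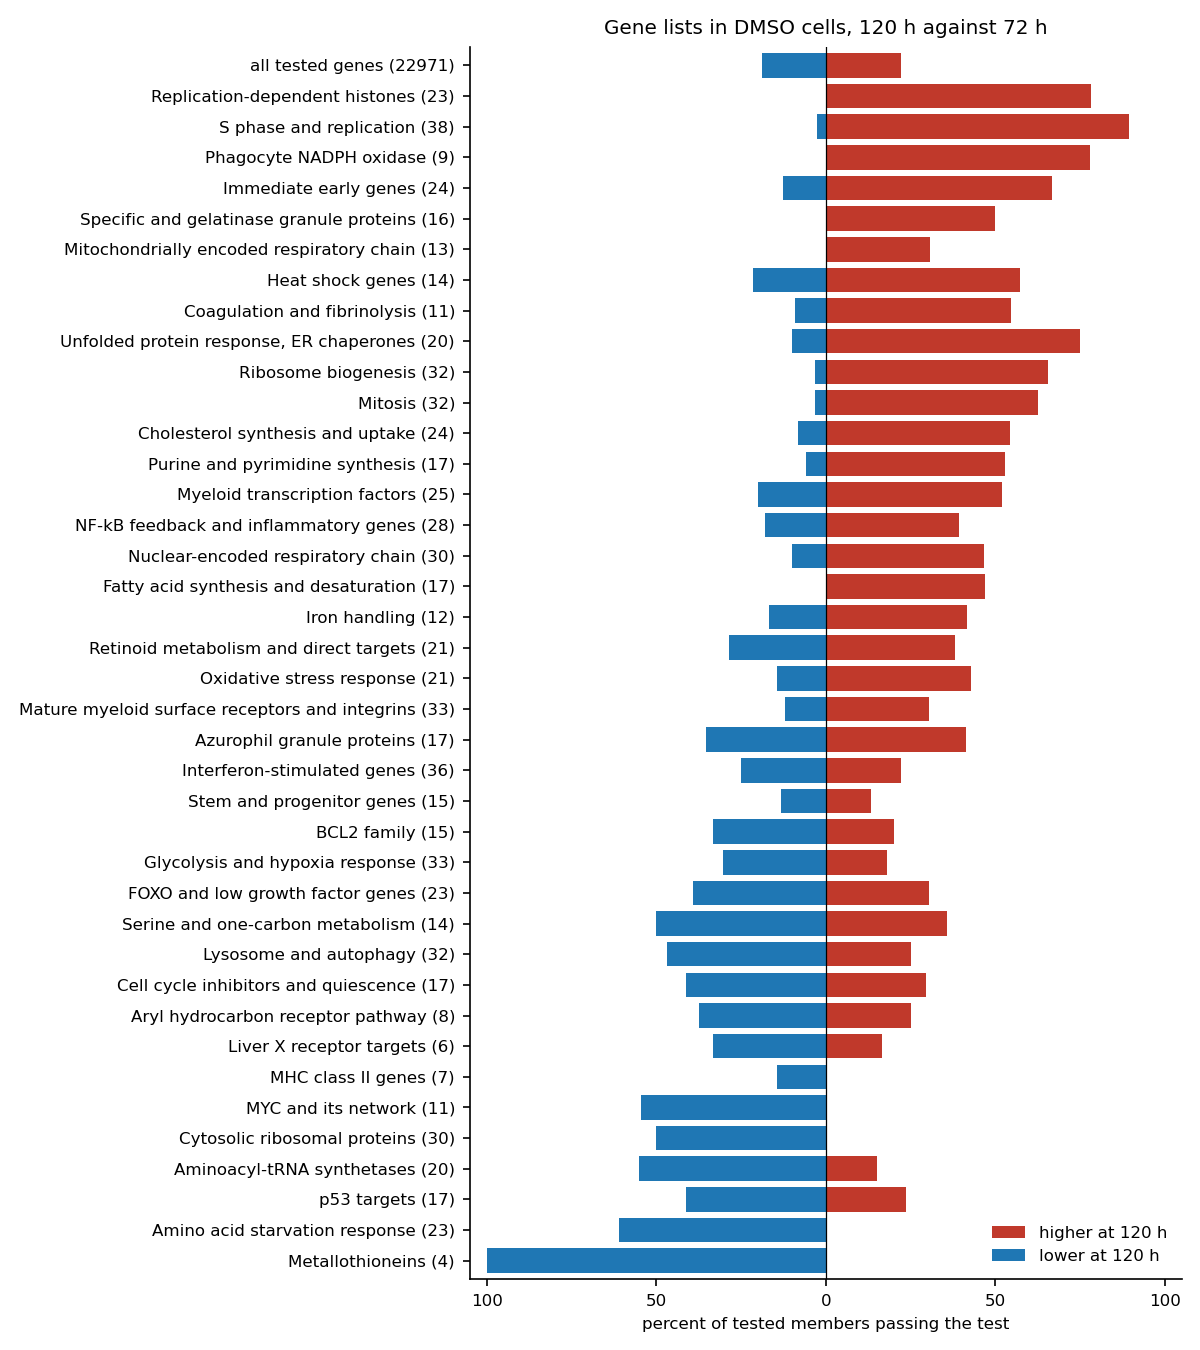
For each gene list, with the number of tested members in brackets, the bar to the right gives the percent of members that rose and the bar to the left the percent that fell in DMSO cells at 120 h against 72 h. The top bar gives all tested genes, and lists run down the page from the highest to the lowest median log2 change.

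DNA replication genes were higher at 120 h almost throughout. 34 of 38 tested members rose, 1 fell and 3 did not pass (median log2 change 0.59). RRM2, the small subunit of ribonucleotide reductase, which makes deoxynucleotides (chr2:10120435-10135051, plus strand, GRCh38), had 142, 153 and 143 CPM at 120 h, against 61.6, 59.1 and 54.9 CPM at 72 h (log2 change 1.32 ± 0.07, adjusted p = 4.82e-17). PCNA, the sliding clamp of DNA polymerases (chr20:5114952-5126626, minus strand), had 303, 301 and 281 CPM at 120 h, against 139.7, 119 and 126 CPM at 72 h (log2 change 1.20 ± 0.08, adjusted p = 3.37e-14). All 3 values at 120 h lay above all 3 at 72 h for both genes, and the spread within a time was small beside the difference. FEN1, the nuclease that trims Okazaki fragments, had 149.6, 144 and 136 CPM at 120 h, against 61.8, 57.1 and 63.7 CPM at 72 h (log2 change 1.23 ± 0.08, adjusted p = 7.35e-16). CDC6, which loads the replicative helicase at origins, had 80.9, 75.6 and 78.4 CPM at 120 h, against 37.3, 39.1 and 38.7 CPM at 72 h (log2 change 1.03 ± 0.08, adjusted p = 1.01e-12). In these genes too the 2 sets of values stood apart, and MCM10, which helps to start that helicase, rose by 0.92 ± 0.07. CDT1, which also loads it, was the 1 member that fell, by 0.38 on the log2 scale. TYMS, the enzyme of thymidylate synthesis, rose by 0.51 ± 0.08 on the log2 scale. UHRF1, which carries DNA methylation through replication, had a log2 change of 1.13 ± 0.09, but 51% of its exons overlap a neighbour on the same strand, which makes its counts uncertain.

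Replication-dependent histones, which are made in S phase to package new DNA, moved with them. 18 of 23 tested members rose, 0 fell and 5 did not pass (median log2 change 0.69). H2BC9, a gene for histone H2B, had 179, 169.5 and 156 CPM at 120 h, against 64, 82.8 and 58.5 CPM at 72 h (log2 change 1.30 ± 0.12, adjusted p = 6.29e-11), with no overlap between the times. H4C8, a gene for histone H4, had 194, 192 and 176 CPM at 120 h, against 94.5, 100 and 93.4 CPM at 72 h (log2 change 0.96 ± 0.09, adjusted p = 6.18e-11). Histone genes have near-identical copies and many share exon models, so the level of 1 gene is uncertain. Their direction was the same in every called member.

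Many mitotic genes rose too. 20 of 32 tested members rose, 1 fell and 11 did not pass (median log2 change 0.24). The 1 that fell was KIF2C, a kinesin that takes microtubules apart, by 0.22 on the log2 scale. CCNB1, the cyclin of mitotic entry, had 189.9, 190.0 and 179 CPM at 120 h, against 119, 134 and 118 CPM at 72 h (log2 change 0.59 ± 0.08, adjusted p = 5.78e-08). KIF11, the spindle motor, had 148, 156 and 158 CPM at 120 h, against 102, 95.1 and 92.3 CPM at 72 h (log2 change 0.68 ± 0.09, adjusted p = 1.36e-07). In both, every library at 120 h lay above every library at 72 h. MKI67, whose protein Ki-67 coats mitotic chromosomes and marks cycling cells, had 381, 373 and 363 CPM at 120 h, against 255, 264 and 265 CPM at 72 h (log2 change 0.51 ± 0.08, adjusted p = 4.2e-06). FOXM1, a transcription factor of mitotic genes, rose by 0.65 ± 0.07, CCNA2 by 0.45 ± 0.07 and CENPF, a kinetochore protein, by 0.45 ± 0.08. The median of the mitotic list, 0.24, was below that of the S phase list, 0.59; the lists were not tested against each other. Without replicate 5 at 72 h, 13 mitotic genes rose.

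Promoters of S phase, histone and mitotic genes carry known cell cycle elements, shown here as the 300 bases from 250 before to 50 after the start of transcription (RefSeq, GRCh38.p14, gene strand). Of 33 S phase members with a promoter sequence, 13 (39.4%) held TTTNGCGC on either strand, an E2F site, against 1.83% of all 27305 promoters, and 8 (24.2%) held the narrower TTTGGCGC, against 0.659%. CCAAT, the box of NF-Y, was in 18 of these 33 (54.5%) and in 19 of 22 histone promoters (86.4%), against 35.7% of all. TTTGAA, the CHR element of mitotic genes, was in 17 of 26 mitotic promoters (65.4%), against 15.4% of all. CDC6 (chr17:40287629-40287928 on the plus strand) and H2BC9 (chr6:26251364-26251663 on the plus strand) are shown as examples with values given above; capitals mark TTTNGCGC in CDC6 and CCAAT in H2BC9, on either strand.
CDC6: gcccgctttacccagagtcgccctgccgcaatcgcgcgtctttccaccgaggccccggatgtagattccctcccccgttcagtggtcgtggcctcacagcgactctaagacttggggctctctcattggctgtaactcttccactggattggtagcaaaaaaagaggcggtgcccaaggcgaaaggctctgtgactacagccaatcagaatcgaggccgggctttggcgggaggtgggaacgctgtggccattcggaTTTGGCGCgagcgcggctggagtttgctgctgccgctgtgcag
H2BC9: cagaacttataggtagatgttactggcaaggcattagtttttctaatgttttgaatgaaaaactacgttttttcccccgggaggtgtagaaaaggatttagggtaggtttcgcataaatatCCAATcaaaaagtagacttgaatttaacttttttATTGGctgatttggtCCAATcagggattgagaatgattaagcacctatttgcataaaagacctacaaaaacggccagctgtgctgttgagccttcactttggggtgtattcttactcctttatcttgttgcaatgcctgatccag
The match in CDC6 begins 8 bases after the start, and H2BC9 has 3 matches, at -129, -95 and -80 from its start. Of the S phase members with TTTNGCGC, CDT1 fell and the others rose. RRM2, PCNA, FEN1, TYMS and MCM10, which rose, had no match to it in the window. Such a match describes letters in the window and is not a measurement of binding. The motifs and the promoters shown were chosen after list values had been seen.

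Cell cycle inhibitors did not move as a block. 5 of 17 tested members rose, 7 fell and 5 did not pass (median log2 change -0.09). CDKN1A, the p21 inhibitor of cyclin-dependent kinases, had 3.97, 6.73 and 6.02 CPM at 120 h, against 1.19, 1.46 and 1.93 CPM at 72 h (log2 change 1.86 ± 0.19, adjusted p = 5.45e-10). BTG2, an antiproliferative gene that is also induced by serum, had 7.86, 9.81 and 10.1 CPM at 120 h, against 1.78, 2.63 and 1.61 CPM at 72 h (log2 change 2.20 ± 0.17, adjusted p = 1.74e-13). CDKN1A and BTG2 were higher in every library at 120 h, and CCNG2 and CCNG1 were lower. CCNG2, a cyclin that is high in resting cells, had 14.7, 14.9 and 20.2 CPM at 120 h, against 33, 34.3 and 29.3 CPM at 72 h (log2 change -0.95 ± 0.12, adjusted p = 6.09e-08). CCNG1, a relative under p53 control, fell by 0.65 on the log2 scale, with 129 ± 5.97 CPM at 120 h, against 202 ± 7.69 CPM at 72 h (SD, n = 3 each). CDKN1B, the p27 inhibitor, had 20.3, 23.2 and 25 CPM at 120 h, against 27.9, 25.4 and 26 CPM at 72 h (log2 change -0.21 ± 0.08, adjusted p = 0.032), a call that was lost when replicate 2 at 72 h or replicate 2 or 4 at 120 h was left out (adjusted p = 0.205, 0.339 and 0.0935). CDKN2C, the p18 inhibitor, and RBL1, the p107 pocket protein, both rose, by 0.59 ± 0.09 and 0.52 ± 0.08.

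Most genes of nucleotide synthesis and ribosome assembly were higher at 120 h, while messages of the ribosomal proteins themselves fell or did not pass. For purine and pyrimidine synthesis, 9 of 17 tested members rose, 1 fell and 7 did not pass (median log2 change 0.23). The 1 that fell was IMPDH2, an enzyme of guanine nucleotide synthesis, by 0.32 on the log2 scale. CTPS1, which makes CTP, had 109, 108 and 108 CPM at 120 h, against 70.5, 68.4 and 74 CPM at 72 h (log2 change 0.61 ± 0.06, adjusted p = 2.16e-11). PFAS, an enzyme of purine synthesis, had 199.6, 216 and 184 CPM at 120 h, against 139.7, 129 and 119 CPM at 72 h (log2 change 0.63 ± 0.08, adjusted p = 7.51e-08). In both, the times did not overlap. For ribosome biogenesis, 21 of 32 tested members rose, 1 fell and 10 did not pass (median log2 change 0.32). UTP20, a part of the small subunit processome, had 95.4, 99.5 and 93.2 CPM at 120 h, against 56.1, 57.4 and 50.3 CPM at 72 h (log2 change 0.82 ± 0.08, adjusted p = 2.16e-10). NOP56, a core protein of box C/D snoRNPs, had 375, 375 and 371 CPM at 120 h, against 229.8, 235 and 235 CPM at 72 h (log2 change 0.68 ± 0.07, adjusted p = 3.63e-10). NOB1, the nuclease that makes the mature end of 18S rRNA, was the 1 member that fell, by 0.48 on the log2 scale. For cytosolic ribosomal proteins, 0 of 30 tested members rose, 15 fell and 15 did not pass (median log2 change -0.18). RPL12 had 787, 739 and 717 CPM at 120 h, against 973, 1105 and 1042 CPM at 72 h (log2 change -0.48 ± 0.07, adjusted p = 5.36e-07). RPL3 had 1336, 1312 and 1244 CPM at 120 h, against 1599, 1632 and 1616 CPM at 72 h (log2 change -0.32 ± 0.07, adjusted p = 0.000303). In both genes the values at 120 h lay below those at 72 h. Without replicate 4 at 120 h, 9 ribosomal protein genes fell.

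In the MYC list, which holds MYC and the partners and antagonists that share its binding sites, 6 of 11 tested members fell, 0 rose and 5 did not pass (median log2 change -0.18). MYC itself, a driver of ribosome and nucleotide synthesis, had 529, 509 and 454 CPM at 120 h, against 692, 723 and 704 CPM at 72 h (log2 change -0.51 ± 0.08, adjusted p = 1.8e-06). It was thus lower at 120 h while most members of the ribosome biogenesis list were higher. MXI1, an antagonist of MYC and a target of HIF1, had 37, 36.2 and 41.9 CPM at 120 h, against 66.2, 79.1 and 65.5 CPM at 72 h (log2 change -0.87 ± 0.11, adjusted p = 3e-08). Both genes were lower in every library at 120 h. MNT, another antagonist, fell by 0.43 on the log2 scale, and MAX, the shared partner, did not pass, with 67.8, 70.2 and 62.3 CPM at 120 h, against 62.1, 65.2 and 63.8 CPM at 72 h (log2 change 0.07 ± 0.06, adjusted p = 0.384). CACGTG, the E-box that MYC and related factors bind, was in 9 of 26 ribosome biogenesis promoters (34.6%) and 3 of 10 of the MYC list (30%), against 7.43% of all.

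Many chaperones of the cytosol and of the endoplasmic reticulum rose. Of heat shock genes, 8 of 14 tested members rose, 3 fell and 3 did not pass (median log2 change 0.37). HSPA8, the constitutive HSP70, had 2601, 2645 and 2345 CPM at 120 h, against 905, 979 and 1043 CPM at 72 h (log2 change 1.38 ± 0.10, adjusted p = 2.27e-14). HSP90AA1, the inducible HSP90, had 1253, 1256 and 1191 CPM at 120 h, against 487, 507 and 652 CPM at 72 h (log2 change 1.17 ± 0.09, adjusted p = 1.06e-12). DNAJA1, an HSP40 that works with HSPA8, had 420.4, 424 and 406 CPM at 120 h, against 167, 171 and 181 CPM at 72 h (log2 change 1.27 ± 0.09, adjusted p = 7.1e-14). The 3 genes were higher in every library at 120 h. The stress-inducible HSP70 genes HSPA1B, of this list, and HSPA6, which is not in it, went the other way. HSPA1B had 25.5, 31.9 and 25.5 CPM at 120 h, against 54.7, 92.1 and 82.9 CPM at 72 h (log2 change -1.47 ± 0.14, adjusted p = 1.4e-10). HSPA6 had 1.24, 1.52 and 1.25 CPM at 120 h, against 4.47, 9.48 and 20.7 CPM at 72 h (log2 change -3.12 ± 0.32, adjusted p = 2.85e-10). HSPA6 shares 100% and HSPA1B 48.5% of exon length with another gene, and HSPA1B has a near-identical copy, so both are uncertain. The 3 values of HSPA6 at 72 h also spread widely, and without replicate 5 at 72 h its log2 change was -2.43. For the unfolded protein response and chaperones of the endoplasmic reticulum, 15 of 20 tested members rose, 2 fell and 3 did not pass (median log2 change 0.35). HSPA5, the BiP chaperone, had 381, 381 and 359.7 CPM at 120 h, against 199, 178 and 202 CPM at 72 h (log2 change 0.95 ± 0.07, adjusted p = 4.71e-14). SDF2L1, a partner of BiP, had 28.9, 30.7 and 24.9 CPM at 120 h, against 9.67, 8.39 and 8.78 CPM at 72 h (log2 change 1.66 ± 0.13, adjusted p = 3.37e-13). CALR, the calcium-binding lectin chaperone, had 2764, 2755 and 2471 CPM at 120 h, against 1511, 1557 and 1616 CPM at 72 h (log2 change 0.77 ± 0.07, adjusted p = 6.46e-11). These 3 genes were higher in every library at 120 h. Of the 2 members that fell, HERPUD1 and DNAJB9, 1 or none did so when any 1 library other than replicate 4 at 72 h was left out.

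**Figure D3:**
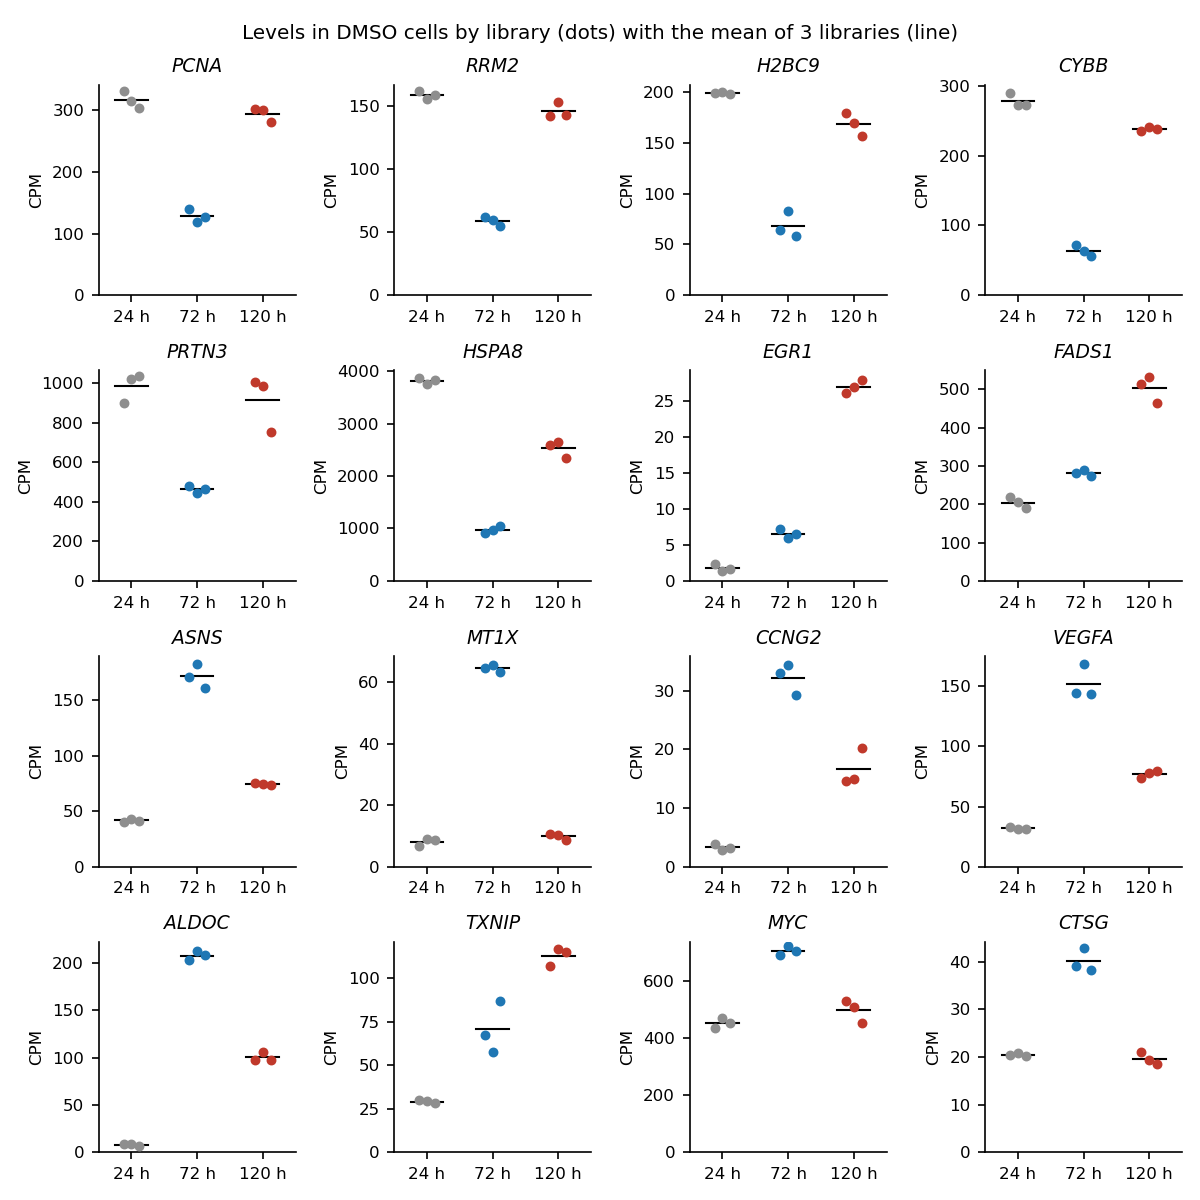
Levels in CPM of 16 named genes in DMSO cells at 24 h, 72 h and 120 h, each with its own axis starting at 0; dots are libraries and lines the mean of 3. PCNA, RRM2, H2BC9, CYBB, PRTN3 and HSPA8 are lowest at 72 h, and ASNS, MT1X, CCNG2, VEGFA, ALDOC, MYC and CTSG are highest at 72 h.

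Most genes of the amino acid starvation response, the targets of ATF4, were lower at 120 h. 0 of 23 tested members rose, 14 fell and 9 did not pass (median log2 change -0.49). ATF5, a transcription factor of this response, had 26.9, 30.1 and 28.8 CPM at 120 h, against 97.3, 99.6 and 86 CPM at 72 h (log2 change -1.72 ± 0.09, adjusted p = 3.06e-18). ASNS, asparagine synthetase (chr7:97851984-97973338, minus strand), had 75.5, 74.4 and 73.4 CPM at 120 h, against 171, 183 and 162 CPM at 72 h (log2 change -1.21 ± 0.07, adjusted p = 4.42e-17), though 69.2% of its exons overlap a neighbour. Both were lower in every library at 120 h, as were the next 3. KLHL24 had 12.9, 11.6 and 14.2 CPM at 120 h, against 36, 38.5 and 37 CPM at 72 h (log2 change -1.52 ± 0.10, adjusted p = 3.69e-15). VLDLR, a lipoprotein receptor, had 38.1, 41.4 and 39.7 CPM at 120 h, against 83, 84.7 and 84.7 CPM at 72 h (log2 change -1.08 ± 0.09, adjusted p = 2.59e-12). SLC3A2, the heavy chain of amino acid transporters, had 201, 214 and 191 CPM at 120 h, against 306, 328 and 316 CPM at 72 h (log2 change -0.65 ± 0.07, adjusted p = 8.78e-10). DDIT4, an inhibitor of mTORC1, did not pass, with 206, 229.9 and 207 CPM at 120 h, against 215, 284 and 247 CPM at 72 h (adjusted p = 0.276), and its groups overlapped. SLC7A11, the cystine transporter, had a log2 change of -0.03 ± 0.09 (adjusted p = 0.804). The message of ATF4 itself, also in the list, averaged 386 ± 24.9 CPM at 120 h, against 417 ± 1.08 CPM at 72 h (SD, n = 3 each). It did not pass (log2 change -0.11 ± 0.07, adjusted p = 0.209).

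Enzymes that charge tRNAs and make serine moved the same way in part. Of aminoacyl-tRNA synthetases, 3 of 20 tested members rose, 11 fell and 6 did not pass (median log2 change -0.21). CARS1, the cysteinyl enzyme, had 57.5, 56.1 and 54.9 CPM at 120 h, against 90.7, 95.2 and 93.4 CPM at 72 h (log2 change -0.73 ± 0.07, adjusted p = 1.28e-10). YARS1, the tyrosyl enzyme, had 201, 200.2 and 189 CPM at 120 h, against 272, 283 and 264 CPM at 72 h (log2 change -0.47 ± 0.06, adjusted p = 1.48e-08). In both, all values at 120 h lay below those at 72 h. RARS1 and HARS1, the arginyl and histidyl enzymes, rose, by 0.48 ± 0.07 and 0.40 ± 0.06 on the log2 scale. In serine and one-carbon metabolism, 5 of 14 tested members rose, 7 fell and 2 did not pass (median log2 change -0.04), a median that was 0.005 without replicate 4 at 120 h. PHGDH, the first enzyme of serine synthesis, had 88.7, 85.5 and 84.1 CPM at 120 h, against 179, 177 and 157 CPM at 72 h (log2 change -0.99 ± 0.08, adjusted p = 3.51e-13). PSAT1, the next, had 75.3, 72.6 and 74.2 CPM at 120 h, against 121, 99.4 and 94.9 CPM at 72 h (log2 change -0.50 ± 0.08, adjusted p = 4.51e-06). TYMS, also in this list, was among those that rose, and without replicate 5 at 72 h 3 members of it rose.

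The core of the C/EBP-ATF response element, TGATGNAA, was in 5 of 22 promoters of the starvation list (22.7%), 6 of 16 of the tRNA synthetases (37.5%) and 1 of 10 of serine and one-carbon metabolism (10%), against 3.67% of all promoters. ASNS (chr7:97872359-97872658 on the minus strand) and CARS1 (chr11:3057374-3057673 on the minus strand) are shown with these letters in capitals, on either strand.
ASNS: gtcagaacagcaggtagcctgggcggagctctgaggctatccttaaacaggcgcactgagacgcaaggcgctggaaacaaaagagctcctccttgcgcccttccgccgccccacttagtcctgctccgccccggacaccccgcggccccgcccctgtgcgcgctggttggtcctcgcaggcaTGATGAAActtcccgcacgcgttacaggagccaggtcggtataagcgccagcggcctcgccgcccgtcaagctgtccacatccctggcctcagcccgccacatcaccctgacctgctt
CARS1: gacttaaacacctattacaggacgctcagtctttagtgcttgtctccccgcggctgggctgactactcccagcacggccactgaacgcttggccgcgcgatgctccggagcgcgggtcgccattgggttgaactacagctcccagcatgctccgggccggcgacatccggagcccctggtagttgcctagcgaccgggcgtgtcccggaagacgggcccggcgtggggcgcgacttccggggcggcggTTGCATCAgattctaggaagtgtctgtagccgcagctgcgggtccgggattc
The match begins 68 bases before the start in ASNS and 2 bases before it in CARS1. Of the starvation genes with this motif, ASNS and SLC3A2 fell, while ATF3, SLC7A1 and CHAC1 did not pass. ATF5, KLHL24 and VLDLR, which fell, had no match in the window. Of the synthetases with it, NARS1, CARS1, MARS1 and AARS1 fell, while TARS1 and IARS1 did not pass.

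Metallothioneins, small cysteine-rich proteins that bind zinc and copper, had the lowest median of any list, a list added after their values had been seen. All 4 tested of 11 members were lower at 120 h, with a median log2 change of -1.88. MT1X had 10.6, 10.4 and 8.79 CPM at 120 h, against 64.7, 65.7 and 63.4 CPM at 72 h (log2 change -2.70 ± 0.11, adjusted p = 8.25e-21). MT1G had 2.52, 2.79 and 2.84 CPM at 120 h, against 17.3, 18.5 and 17.5 CPM at 72 h (log2 change -2.71 ± 0.18, adjusted p = 8.09e-15). In both, every value at 120 h lay below every value at 72 h. MT1F had 56.1, 58.1 and 47.5 CPM at 120 h, against 116, 109 and 110.0 CPM at 72 h (log2 change -1.05 ± 0.08, adjusted p = 1.06e-12). MT2A had 58.2, 61.8 and 54.8 CPM at 120 h, against 84.5, 77.2 and 79.5 CPM at 72 h (log2 change -0.47 ± 0.09, adjusted p = 4.17e-05). The 2 times stood well apart in each, MT2A the least. These genes are closely related copies in 1 cluster on chromosome 16 and share between 14.3% and 46.7% of exon length with other genes, so the split between them is uncertain. The core of the metal response element, TGCNCNC, was in both metallothionein promoters with a sequence, but also in 55.2% of all promoters. MT1X (chr16:56682220-56682519 on the plus strand) has 4 matches, in capitals.
MT1X: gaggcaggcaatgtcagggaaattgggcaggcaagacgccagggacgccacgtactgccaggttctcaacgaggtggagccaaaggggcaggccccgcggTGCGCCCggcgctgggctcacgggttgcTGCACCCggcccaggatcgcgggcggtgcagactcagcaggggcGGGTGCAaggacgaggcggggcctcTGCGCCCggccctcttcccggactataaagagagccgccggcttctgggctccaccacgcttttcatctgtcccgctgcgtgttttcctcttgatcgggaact

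Genes of glycolysis and the hypoxia response divided. 6 of 33 tested members rose, 10 fell and 17 did not pass (median log2 change 0.01), a median that was -0.02 with RLE size factors and -0.04 without replicate 5 at 72 h. ENO2, the neuronal enolase, had 16.1, 17.7 and 20.6 CPM at 120 h, against 43.4, 46.4 and 41.2 CPM at 72 h (log2 change -1.26 ± 0.12, adjusted p = 4.61e-11). ALDOC, an aldolase, had 97.8, 106 and 97.9 CPM at 120 h, against 203, 212 and 208 CPM at 72 h (log2 change -1.05 ± 0.09, adjusted p = 4.23e-12), sharing 60.1% of its exon length with another gene. VEGFA, the angiogenic growth factor, had 74, 77.9 and 79.3 CPM at 120 h, against 144, 168 and 143 CPM at 72 h (log2 change -0.98 ± 0.08, adjusted p = 3.14e-12). In these 3 genes, and in the next, every library at 120 h lay below those at 72 h. NDRG1 had 52, 54.1 and 57.7 CPM at 120 h, against 119.6, 139 and 119 CPM at 72 h (log2 change -1.20 ± 0.10, adjusted p = 1.56e-12). Genes that rose included SLC16A3, the lactate exporter MCT4, with 353, 383 and 346 CPM at 120 h, against 217, 201 and 208 CPM at 72 h (log2 change 0.79 ± 0.10, adjusted p = 2.36e-08). HK2, the hexokinase of growing cells, fell slightly, with 205, 204 and 207 CPM at 120 h, against 242, 256 and 233 CPM at 72 h (log2 change -0.25 ± 0.07, adjusted p = 0.00235). TACGTG, a hypoxia response element, was in 5 of 29 promoters of the list (17.2%), against 3.33% of all; ENO2 (chr12:6914330-6914629 on the plus strand) has 1, in capitals, which begins 119 bases before the start.
ENO2: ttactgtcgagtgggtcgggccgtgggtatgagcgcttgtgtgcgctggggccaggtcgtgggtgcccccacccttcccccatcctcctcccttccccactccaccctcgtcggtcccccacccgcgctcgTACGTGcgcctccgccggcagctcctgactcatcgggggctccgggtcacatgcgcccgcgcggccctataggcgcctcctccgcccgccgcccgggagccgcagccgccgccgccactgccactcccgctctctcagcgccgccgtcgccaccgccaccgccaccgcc

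Many genes of lipid synthesis rose. For cholesterol synthesis and uptake, 13 of 24 tested members rose, 2 fell and 9 did not pass (median log2 change 0.23). INSIG1, which holds the SREBP factors in the endoplasmic reticulum and is their target, had 632, 635 and 613 CPM at 120 h, against 390.3, 354 and 379.7 CPM at 72 h (log2 change 0.74 ± 0.06, adjusted p = 5.33e-12). FDPS, which makes farnesyl diphosphate, had 323, 317 and 297 CPM at 120 h, against 186, 201 and 208 CPM at 72 h (log2 change 0.65 ± 0.07, adjusted p = 2.24e-10). HMGCS1, an early enzyme of the pathway, had 741, 763 and 773 CPM at 120 h, against 516, 553 and 641 CPM at 72 h (log2 change 0.41 ± 0.09, adjusted p = 0.000155). These 3 genes were higher in every library at 120 h. Of the 2 cholesterol genes that fell, MSMO1 and FDFT1, 1 did so without replicate 2 at 72 h, replicate 2 at 120 h or replicate 4 at 120 h. In fatty acid synthesis, 8 of 17 tested members rose, 0 fell and 9 did not pass (median log2 change 0.14). FADS1, a desaturase, had 513, 533 and 465 CPM at 120 h, against 282, 289 and 274 CPM at 72 h (log2 change 0.84 ± 0.07, adjusted p = 1.06e-12). FASN, fatty acid synthase, had 1913, 1865 and 1549 CPM at 120 h, against 1242, 1129.7 and 1078 CPM at 72 h (log2 change 0.63 ± 0.09, adjusted p = 5.78e-07). TCACNCCAC, the core of a sterol regulatory element, was in 1 of 18 cholesterol promoters (5.56%), against 1.15% of all. TFRC, the transferrin receptor that brings in iron, had 879, 883 and 883 CPM at 120 h, against 389, 391 and 414 CPM at 72 h (log2 change 1.15 ± 0.07, adjusted p = 2.06e-16), while the iron list as a whole had 5 members that rose and 2 that fell of 12. Without replicate 4 or replicate 5 at 72 h, 3 of the iron list rose, and without replicate 2 at 72 h or replicate 4 at 120 h 1 fell. FTH1, the heavy chain of ferritin, did not pass, with 256, 275 and 240.1 CPM at 120 h, against 272, 272 and 251 CPM at 72 h (adjusted p = 0.672).

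Most immediate early genes were higher at 120 h. 16 of 24 tested members rose, 3 fell and 5 did not pass (median log2 change 0.52). EGR1, a zinc finger factor induced by serum (chr5:138463854-138478956, plus strand), had 26.2, 27 and 28 CPM at 120 h, against 7.21, 5.96 and 6.49 CPM at 72 h (log2 change 2.05 ± 0.10, adjusted p = 8.18e-19). DUSP6, the phosphatase that restrains ERK and is its target, had 122, 146 and 141 CPM at 120 h, against 63.1, 56 and 46.6 CPM at 72 h (log2 change 1.30 ± 0.08, adjusted p = 3.34e-16). For both, the 3 libraries at 120 h stood above those at 72 h. JUN and JUND, parts of AP-1, rose by 0.91 ± 0.10 and 1.47 ± 0.16, and IER2 by 0.81 ± 0.09. EGR3 and IER3 had the largest folds of the list at low levels, EGR3 with 1.24, 2.01 and 1.49 CPM at 120 h, against 0.137, 0.243 and 0.197 CPM at 72 h. IER3 had 0.703, 0.452 and 0.553 CPM at 120 h, against 0.137, 0.081 and 0 CPM at 72 h. The log2 change of IER3 was 2.95, but 3.70 without replicate 2 and 2.32 without replicate 5 at 72 h. The CArG box, the site of serum response factor, was in 1 of 18 promoters of the list (5.56%), that of EGR1, against 1.29% of all. EGR1 (chr5:138465229-138465528 on the plus strand) has 2, in capitals.
EGR1: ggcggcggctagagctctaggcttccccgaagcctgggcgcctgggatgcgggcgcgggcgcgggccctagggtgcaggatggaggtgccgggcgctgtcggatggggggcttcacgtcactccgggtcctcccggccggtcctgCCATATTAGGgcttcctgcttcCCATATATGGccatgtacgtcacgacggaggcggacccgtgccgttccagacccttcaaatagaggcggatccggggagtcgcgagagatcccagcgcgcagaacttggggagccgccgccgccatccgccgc

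Inflammatory genes followed in part. 11 of 28 tested members rose, 5 fell and 12 did not pass (median log2 change 0.17). TNF, the cytokine (chr6:31575565-31579197, plus strand), had 83.1, 92.6 and 80.5 CPM at 120 h, against 20.5, 21 and 16.8 CPM at 72 h (log2 change 2.14 ± 0.11, adjusted p = 1.2e-17), so that all 3 libraries at 120 h stood above those at 72 h. CCL2, a monocyte attractant, had 12.9, 15.9 and 11.2 CPM at 120 h, against 7.35, 6.64 and 4.17 CPM at 72 h (log2 change 1.14 ± 0.14, adjusted p = 3.49e-08). NFKBIZ, a nuclear regulator of NF-kB, had 20.9, 23.5 and 24.8 CPM at 120 h, against 12.3, 12.1 and 10.7 CPM at 72 h (log2 change 0.98 ± 0.10, adjusted p = 1.63e-10). ICAM1, an adhesion molecule, had 118, 126 and 116 CPM at 120 h, against 83.6, 85.1 and 54.7 CPM at 72 h (log2 change 0.69 ± 0.10, adjusted p = 1.36e-06), with replicate 5 lowest at 72 h. Interferon-stimulated genes were mixed, with 8 that rose and 9 that fell of 36, and 5 or 4 that rose without replicate 4 or replicate 5 at 72 h. IFIT3 had 14.3, 15.6 and 13.7 CPM at 120 h, against 5.66, 6.32 and 6.3 CPM at 72 h (log2 change 1.25 ± 0.11, adjusted p = 1.21e-11), whereas DHX58, a regulator of RIG-I, had 4.46, 3.24 and 4.08 CPM at 120 h, against 9.85, 9.89 and 9.37 CPM at 72 h (log2 change -1.30 ± 0.12, adjusted p = 4.38e-11).

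**Figure D4:**
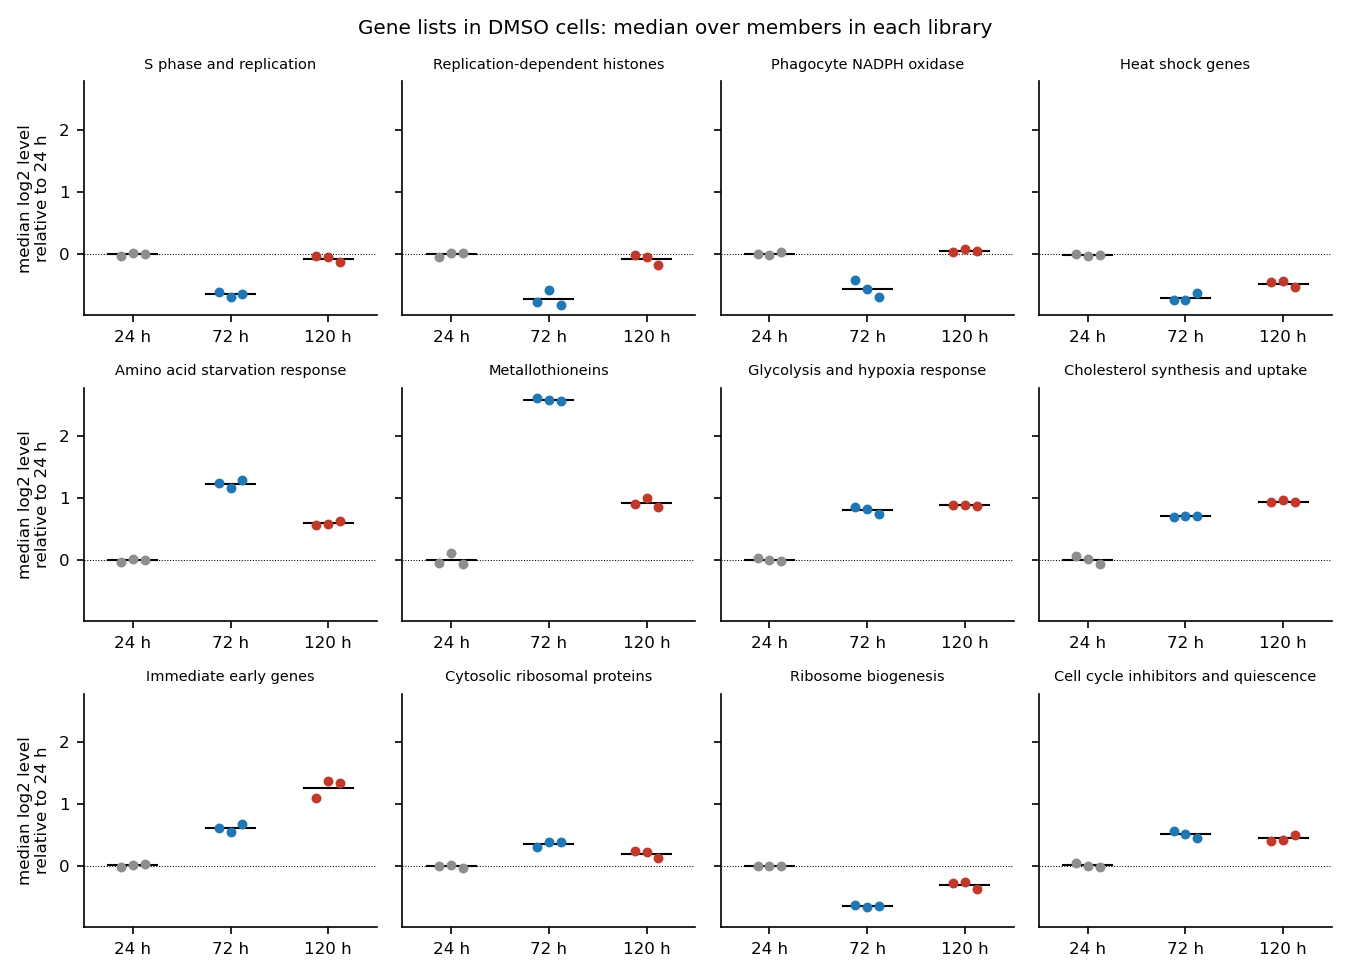
For 12 gene lists, each dot is the median over members of the log2 level in 1 DMSO library, relative to the mean of the 24 h libraries, and lines are means of 3 libraries. The S phase, histone and oxidase lists are lowest at 72 h and near 0 at 120 h, the starvation and metallothionein lists are highest at 72 h, and the immediate early and cholesterol lists are highest at 120 h.

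Myeloid genes changed as well. Of the subunits of the phagocyte NADPH oxidase, the enzyme that makes superoxide, 7 of 9 tested members rose, 0 fell and 2 did not pass (median log2 change 0.53). CYBB, its catalytic subunit gp91phox (chrX:37780011-37814557, plus strand), had 236, 241 and 238 CPM at 120 h, against 71.5, 63.4 and 56.6 CPM at 72 h (log2 change 1.90 ± 0.08, adjusted p = 1.69e-20). CYBA, the membrane partner of CYBB, had 150.1, 161 and 129 CPM at 120 h, against 113, 98.6 and 94 CPM at 72 h (log2 change 0.53 ± 0.09, adjusted p = 1.94e-05). RAC2, the GTPase of the complex, had 95.1, 98.1 and 82.3 CPM at 120 h, against 56.8, 53.2 and 49.3 CPM at 72 h (log2 change 0.79 ± 0.09, adjusted p = 1.08e-09). In all 3 genes the values at 120 h lay above those at 72 h. NCF1, a cytosolic subunit, had 11.2, 13.8 and 10.3 CPM at 120 h, against 4.29, 3.93 and 2.64 CPM at 72 h (log2 change 1.71 ± 0.14, adjusted p = 1.1e-12), but its near-identical pseudogenes make it uncertain. NCF4 and RAP1A did not pass, with log2 changes of 0.05 ± 0.07 and -0.03 ± 0.10.

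Azurophil granule proteins, the enzymes that promyelocytes store, did not move together: 7 of 17 tested members rose, 6 fell and 4 did not pass (median log2 change 0.08). Without replicate 5 at 72 h this median was -0.01. PRTN3, proteinase 3, had 1005, 985 and 751 CPM at 120 h, against 479, 445 and 467 CPM at 72 h (log2 change 0.98 ± 0.09, adjusted p = 2.04e-11). LYZ, lysozyme, had 21.7, 21.1 and 19.6 CPM at 120 h, against 11.2, 9.44 and 10.2 CPM at 72 h (log2 change 1.02 ± 0.11, adjusted p = 5.46e-10). Both were higher in every library at 120 h, and the next pair was lower. AZU1, azurocidin, had 128, 133 and 119 CPM at 120 h, against 200.1, 194 and 184 CPM at 72 h (log2 change -0.60 ± 0.08, adjusted p = 2.74e-07). CTSG, cathepsin G, had 21, 19.4 and 18.5 CPM at 120 h, against 39.1, 42.9 and 38.3 CPM at 72 h (log2 change -1.03 ± 0.10, adjusted p = 4.83e-11). MPO, myeloperoxidase, the most abundant of them, had 10254, 10222 and 8397 CPM at 120 h, against 9148, 8752 and 8732 CPM at 72 h (log2 change 0.12 ± 0.10, adjusted p = 0.394), and its groups overlapped. Of specific and gelatinase granule proteins, which come later in the lineage, 8 of 16 tested members rose, 0 fell and 8 did not pass (median log2 change 0.48). Members ranged from -2.76 to 2.59, and in 6 of 16 the times did not overlap, against 50% of all genes. The median log2 level over members in a library, relative to 24 h, was -0.10 to 0 at 72 h and 0 to 0.12 at 120 h. MMP9, gelatinase B, had 148, 176 and 138 CPM at 120 h, against 106, 99.7 and 92 CPM at 72 h (log2 change 0.64 ± 0.11, adjusted p = 1.33e-05). FCN1, ficolin, had 27.5, 33.1 and 27.4 CPM at 120 h, against 13.6, 14.4 and 14.6 CPM at 72 h (log2 change 1.04 ± 0.09, adjusted p = 8.03e-12). Without replicate 5 at 72 h, or without replicate 4 at 120 h, 5 members of this list rose.

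Of surface receptors and integrins of mature myeloid cells, 10 of 33 tested members rose, 4 fell and 19 did not pass (median log2 change 0.09). Without replicate 5 at 72 h this median was -0.004. CSF1R, the receptor of M-CSF, had 4.38, 5.01 and 4.81 CPM at 120 h, against 1.64, 1.86 and 2.32 CPM at 72 h (log2 change 1.27 ± 0.15, adjusted p = 7.79e-09). FCGR1A, a high-affinity IgG receptor, had 18, 19.2 and 16.2 CPM at 120 h, against 10.7, 8.51 and 10.4 CPM at 72 h (log2 change 0.85 ± 0.10, adjusted p = 3.9e-09). ITGAM, the CD11b integrin used as a mark of maturation, did not pass, with 11.1, 11.9 and 11.3 CPM at 120 h, against 12.2, 12.6 and 10.7 CPM at 72 h (adjusted p = 0.769), and its groups overlapped. CD38, another such mark, rose by 0.31 ± 0.07. Among myeloid transcription factors, 13 of 25 tested members rose, 5 fell and 7 did not pass (median log2 change 0.18), with 3 that fell when replicate 2 at 72 h or at 120 h was left out. LMO2, a partner of blood cell transcription factors, had 45.4, 49.9 and 43.7 CPM at 120 h, against 22.9, 22.4 and 23 CPM at 72 h (log2 change 1.02 ± 0.07, adjusted p = 8.69e-15). The times did not overlap in this gene, and CEBPA, of which 62% of exon length lies over another gene, rose by 0.74 ± 0.09. Of 8 markers of eosinophils, basophils and mast cells, 3 rose, PRG2, EPX and HDC, and none fell. Their summed level, most of it PRG2, was 1947.7 to 2074.3 CPM at 120 h, against 1109.7 to 1212.8 CPM at 72 h. None of the 8 was at 0 in all 6 libraries. CLC, CPA3, TPSAB1, TPSB2 and MS4A2 averaged at most 1.28 CPM at either time and did not pass. The part of these markers in the other myeloid results was not tested. PRG2, eosinophil major basic protein, had 677, 692 and 638 CPM at 24 h, 1015, 1071 and 1110.4 CPM at 72 h and 1903, 1891 and 1783 CPM at 120 h. EPX, eosinophil peroxidase, averaged 115 ± 10.2 CPM at 120 h, against 71.5 ± 2.13 CPM at 72 h (SD, n = 3 each).

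Most of the other lists had members that rose and members that fell. For p53 targets, 4 of 17 tested members rose, 7 fell and 6 did not pass (median log2 change -0.31). DDB2, a DNA repair protein, fell by 0.75 on the log2 scale. Of the BCL2 family of cell death regulators, 3 of 15 tested members rose, 5 fell and 7 did not pass (median log2 change 0.02), a median that was -0.01 with RLE size factors and -0.05 to -0.02 without replicate 4 or 5 at 72 h or replicate 4 at 120 h. MCL1, a survival protein, rose by 0.56 ± 0.06. BBC3, the pro-apoptotic PUMA, had 24.7, 26.5 and 22.3 CPM at 120 h, against 36.3, 36.7 and 35.2 CPM at 72 h (log2 change -0.56 ± 0.10, adjusted p = 1.09e-05). Of lysosome and autophagy genes, 8 of 32 tested members rose, 15 fell and 9 did not pass (median log2 change -0.07), and 5 rose without replicate 4 at 72 h. ULK1, the kinase that starts autophagy, fell by 0.74 on the log2 scale. CACGTG was in 7 of 22 of their promoters (31.8%). In the FOXO and low growth factor list, 7 of 23 tested members rose, 9 fell and 7 did not pass (median log2 change -0.03), a median that was 0.03 without replicate 2 at 72 h. FOXO1, a transcription factor that insulin and growth factors hold out of the nucleus, had 4.59, 3.86 and 5.36 CPM at 120 h, against 10.8, 10.4 and 12.3 CPM at 72 h (log2 change -1.27 ± 0.15, adjusted p = 1.07e-08). TXNIP, a gene induced by glucose, had 107, 117 and 115 CPM at 120 h, against 67.2, 57.8 and 87 CPM at 72 h (log2 change 0.68 ± 0.11, adjusted p = 3.24e-06). GTAAACA, the forkhead site, was in 3 of 19 promoters of that list (15.8%), against 3.41% of all. Of nuclear-encoded respiratory chain genes, 14 of 30 tested members rose, 3 fell and 13 did not pass (median log2 change 0.16). Of mitochondrially encoded ones, whose models overlap and are uncertain, 4 of 13 tested members rose, 0 fell and 9 did not pass (median log2 change 0.38). Without replicate 4 or replicate 5 at 72 h, 9 or 8 nuclear-encoded members rose, and without replicate 4 at 120 h 1 fell. Of the mitochondrial ones, 8 rose without replicate 2 at 72 h, and 1 rose and 1 fell without replicate 4 at 72 h or replicate 5 at 120 h. Of oxidative stress genes, 9 of 21 tested members rose, 3 fell and 9 did not pass (median log2 change 0.10). PRDX1, a peroxiredoxin, rose by 0.65 ± 0.08. Among 15 tested genes of stem and progenitor cells, 2 rose and 2 fell, with a median of 0.02, or -0.01 with RLE size factors and -0.04 to -0.02 without replicate 4 or 5 at either time. For coagulation and fibrinolysis, 6 of 11 tested members rose, 1 fell and 4 did not pass (median log2 change 0.37). In the retinoid list, 8 of 21 tested members rose, 6 fell and 7 did not pass (median log2 change 0.14). DHRS3, a retinal reductase induced by retinoic acid, had 6.2, 5.71 and 5.22 CPM at 120 h, against 10.4, 13.4 and 12.8 CPM at 72 h (log2 change -1.10 ± 0.12, adjusted p = 6.75e-10). TGM2, a retinoid target, had 2.44, 2.63 and 2.7 CPM at 120 h, against 10.1, 7.25 and 2.2 CPM at 72 h (log2 change -1.31 ± 0.27, adjusted p = 0.000134), and its groups overlapped. Without replicate 2 in every group its log2 change was -0.80 (adjusted p = 0.0585). Of the liver X receptor, aryl hydrocarbon receptor and MHC class II lists, 1, 2 and 0 members rose and 2, 3 and 1 fell, of 6, 8 and 7 tested. The MHC class II gene that fell, CD74, and the coagulation gene that fell, TFPI, did not pass without replicate 2 at 72 h. TFPI did not pass without replicate 2 or replicate 5 at 120 h either. The MHC class II median of -0.14 was 0.21 without replicate 4 at 72 h and 0.13 without replicate 5 at 120 h.

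The largest changes among called protein-coding genes with no overlap between the times were mostly of weakly expressed genes. RAB7B, a GTPase of late endosomes, had 22.1, 26.1 and 21 CPM at 120 h, against 4.7, 4.54 and 4.45 CPM at 72 h (log2 change 2.33 ± 0.14, adjusted p = 4e-16). NRP1, a co-receptor of VEGF, had 13.5, 15.3 and 16.6 CPM at 120 h, against 3.19, 3.36 and 2.6 CPM at 72 h (log2 change 2.31 ± 0.12, adjusted p = 9.46e-18). CCR2, the receptor of CCL2, had 1.41, 1.77 and 1.76 CPM at 120 h, against 0.228, 0.243 and 0.157 CPM at 72 h (log2 change 2.96 ± 0.36, adjusted p = 1.73e-08). The times did not overlap in these 3 genes or in the next, which was a condition of their choice. ACSL6, an acyl-CoA synthetase, had 3.06, 3.78 and 3.36 CPM at 120 h, against 0.456, 0.81 and 0.512 CPM at 72 h (5.66-fold, adjusted p = 1.17e-10). CD36, a scavenger receptor, averaged 0.42 ± 0.222 CPM at 120 h, against 0.0719 ± 0.0687 CPM at 72 h, and ADGRG5, an adhesion receptor, 3.07 ± 0.225 CPM at 120 h, against 0.539 ± 0.251 CPM at 72 h. IL18RAP, a subunit of the interleukin 18 receptor, averaged 1.4 ± 0.293 CPM at 120 h, against 0.288 ± 0.139 CPM at 72 h (SD, n = 3 each). Genes were chosen at an average log2 CPM of at least 1 over all 33 libraries. CD36, CCR2 and IL18RAP were below that level at both times, so they passed through libraries outside this comparison. The log2 change of CD36 was 2.53 ± 0.56, but 3.28 without replicate 2 and 1.92 without replicate 4 at 72 h. UCN2 and ZNF366 were also among the 12 that rose the most, and 69.3% and 35.5% of their exon length lie over another gene. CREBRF, a regulator of the unfolded protein response, had 2.4, 2.22 and 3.7 CPM at 120 h, against 13.7, 13.6 and 12.2 CPM at 72 h (log2 change -2.23 ± 0.15, adjusted p = 1.58e-14). KCNG1, a potassium channel subunit, had 1.7, 1.56 and 1.56 CPM at 120 h, against 8.99, 6.48 and 6.45 CPM at 72 h (log2 change -2.18 ± 0.19, adjusted p = 1.2e-11). SAT2 had 1.7, 1.11 and 1.21 CPM at 120 h, against 5.79, 8.83 and 7.79 CPM at 72 h (log2 change -2.49 ± 0.20, adjusted p = 1.18e-12). These 3 genes, and the next, were lower in every library at 120 h, by the same condition. ICAM5, an adhesion molecule of neurons, had 1.03, 1.31 and 1.14 CPM at 120 h, against 4.65, 5.47 and 4.88 CPM at 72 h (log2 change -2.10 ± 0.24, adjusted p = 5.84e-09). DNAH17, with a log2 change of -3.01 ± 0.49, CAMK2B with -2.21 ± 0.49, RENBP with -2.03 ± 0.24, NGFR with -2.25 ± 0.31 and CAMKV with -2.71 ± 0.19 completed the 12 that fell the most, with HSPA6, MT1G and MT1X. CAMKV shares 42.9% of its exon length with a neighbour. CAMK2B changed by -1.42 without replicate 2 at 72 h and did not pass without replicate 2 in every group (adjusted p = 0.0956). The change was -2.97 for NGFR without replicate 2 at 120 h and -4.08 for DNAH17 without replicate 5 at 120 h.

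Among long non-coding genes, FAM30A had 43.7, 52.6 and 55.5 CPM at 120 h, against 9.99, 7.54 and 7.87 CPM at 72 h (log2 change 2.58 ± 0.13, adjusted p = 1.01e-18). HOTAIRM1, an RNA of the HOXA cluster that is expressed in myeloid cells, had 4.51, 4.39 and 4.57 CPM at 120 h, against 12.5, 12.1 and 13.2 CPM at 72 h (log2 change -1.49 ± 0.11, adjusted p = 1.48e-13). PCED1B-AS1 rose by 1.94 ± 0.27, while NALT1 had a log2 change of -1.75 ± 0.23, PCAT18 of -1.83 ± 0.27 and GOT1-DT of -1.50 ± 0.18. Of 81 small nuclear RNA genes, 34 rose and 7 fell, with a median log2 change of 0.54, and of 249 small nucleolar RNA genes 51 rose and 33 fell. RNU6ATAC, the U6 RNA of the minor spliceosome, had 10.3, 11.1 and 9.06 CPM at 120 h, against 2.74, 1.54 and 1.89 CPM at 72 h (log2 change 2.31 ± 0.21, adjusted p = 1.26e-11). Libraries of total RNA recover such short RNAs in part, and genes of this kind have many copies.

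Values at 24 h put these changes beside the preceding interval. The comparisons of 72 h with 24 h and of 120 h with 24 h share libraries with that of 120 h with 72 h, so their values are only set side by side. Between 72 h and 24 h, 11872 genes (51.7%) differed, and between 120 h and 24 h 5098 (22.2%). The median log2 change of the S phase list was -0.64 for 72 h against 24 h, 0.59 for 120 h against 72 h and -0.09 for 120 h against 24 h. For the starvation list these medians were 1.34, -0.49 and 0.59, and for ribosome biogenesis -0.65, 0.32 and -0.30. PCNA averaged 316 CPM at 24 h, 128 CPM at 72 h and 295 CPM at 120 h, and CYBB 278 CPM at 24 h, 63.8 CPM at 72 h and 238 CPM at 120 h. ASNS averaged 41.7 CPM at 24 h, 172 CPM at 72 h and 74.4 CPM at 120 h, and MT1X 8.15 CPM at 24 h, 64.6 CPM at 72 h and 9.95 CPM at 120 h. For these 4 genes the 120 h mean was nearer to the 24 h mean than the 72 h mean was. Other lists did not take that course: the medians of cholesterol synthesis were 0.70, 0.23 and 0.93 in the same order, and those of immediate early genes 0.58, 0.52 and 1.36. HMGCS1 averaged 135 CPM at 24 h, 570.0 CPM at 72 h and 759 CPM at 120 h, and EGR1 1.81 CPM at 24 h, 6.55 CPM at 72 h and 27.1 CPM at 120 h. In the glycolysis and hypoxia list the medians were 1.04, 0.01 and 0.90, with 29 of 33 members higher at 120 h than at 24 h, against 12.6% of all genes. Single members differed from that median: ALDOC was highest at 72 h, averaging 8.15 CPM at 24 h, 208 CPM at 72 h and 101 CPM at 120 h, and HK2 averaged 109.9 CPM at 24 h, 244 CPM at 72 h and 205 CPM at 120 h. DDIT4, of the starvation list, averaged 33.4 CPM at 24 h, 249 CPM at 72 h and 214 CPM at 120 h.

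Cells given ATRA were harvested at the same times, which allowed a test of whether the change from 72 h to 120 h differed between treatments. It differed for 9021 genes (39.3% of all tested). The change was more upward in DMSO cells for 5005 genes (21.8% of all tested) and more downward for 4016 (17.5% of all tested). In S phase genes the difference was positive for 34 of 38 and negative for 1, with a median log2 change of 0.59 in DMSO cells and -0.45 in ATRA cells; over all tested genes these medians were 0.01 and -0.04. All 23 tested histone genes and 31 of 32 mitotic genes differed in that direction. For 30 of 30 cytosolic ribosomal protein genes the difference was positive, with medians of -0.18 in DMSO cells and -0.89 in ATRA cells. Amino acid starvation genes differed the other way in 16 of 23, with medians of -0.49 and 0.18, and lysosome genes in 27 of 32, with medians of -0.07 and 1.04. For MYC the change was -0.51 ± 0.08 in DMSO cells and -1.39 ± 0.08 in ATRA cells, a difference of 0.89 ± 0.11 (adjusted p = 3.33e-08). For CYBB it was 1.90 ± 0.08 in DMSO cells and 1.11 ± 0.08 in ATRA cells, with a difference of 0.79 ± 0.11 (adjusted p = 9.18e-08). The medians of heat shock genes were 0.37 in DMSO cells and 0.53 in ATRA cells, and of the 14 members 4 differed upward, 4 downward and 6 did not pass. RAB7B, among the genes that rose the most in DMSO cells, averaged 3.06 ± 1.04 CPM in ATRA cells at 120 h, against 0.358 ± 0.0405 CPM at 72 h (SD, n = 3 each).

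**Figure D5:**
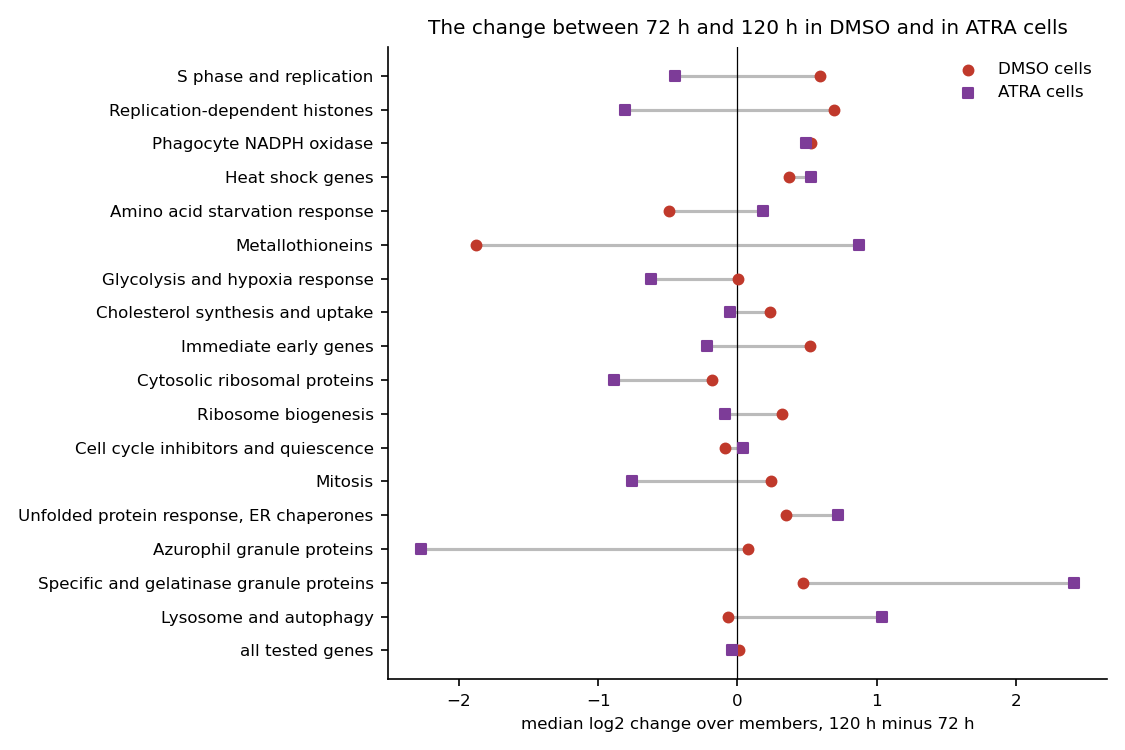
Median log2 change over the members of each list at 120 h against 72 h, in DMSO cells (red dots) and in ATRA cells (purple squares). S phase, histone and mitosis lists lie above 0 in DMSO cells and below 0 in ATRA cells, and metallothionein and starvation lists lie below 0 in DMSO cells and above 0 in ATRA cells.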

How the data were processed

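Per the labels' protocols, stranded paired-end libraries were made from total RNA of NB4 cells that were left untreated or received DMSO or 1 µM ATRA. Each of 11 groups had 3 biological replicates, each sequenced in 2 technical runs per the labels, which the table does not separate. Groups and replicate numbers (2, 4 and 5) came from the titles and lanes from the file headers. The deposited values are raw counts of fragments per gene, made by the authors with featureCounts 1.5.1 in strand-specific mode, with a fragment over several genes counted in each, per the file headers. The annotation merged Ensembl and FANTOM CAT on GRCh38. Trimmomatic 0.36, STAR 2.5.2b and Subread 1.5.1 stand in the submitters' processing notes.

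Counts of the 33 libraries were tested with edgeR 4.0.16 (filterByExpr, TMM, 1 quasi-likelihood model over all groups, biological coefficient of variation 0.0769), so all groups shared an estimate of the spread. DMSO cells at 120 h were set against those at 72 h and at 24 h, those at 72 h against 24 h, and the change from 72 h to 120 h was also tested in ATRA cells and for its difference between treatments. P-values were adjusted by Benjamini-Hochberg over 22971 genes within a contrast, with a threshold of 0.05. Standard errors were derived from the fold change and its F statistic. Symbols came from a gene name table by identifier and from GENCODE 29, for 41944 of 85160 genes in the table. In data simulated on these libraries, the changed genes were drawn from those with an average log2 CPM of at least 1. Of these, 87 of 100 changed by 1.5-fold and 100 of 100 changed by 3-fold were called for DMSO 120 h against 72 h. There were 6 calls among unchanged genes. All other genes were kept at the same level in every group, unlike the real data. The figures therefore do not cover weakly expressed genes or a change of so many genes.

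The groups, gene lists and rules were chosen with earlier results of these data known, and the metallothionein list, the motifs and the promoters shown were chosen or altered after values were seen. In all 12 motifs were searched. Genes named were the 12 that rose and 12 that fell the most among called protein-coding genes without overlap and with an average log2 CPM of at least 1, up to 6 called members of smallest p from each list and every member of lists with at most 12, a core set of 20, the 6 with the largest difference from ATRA in each direction, and up to 4 long non-coding genes each way; the text gives a selection of these, and some genes are not reported here. The average log2 CPM in these rules was taken over all 33 libraries, ATRA cells included. Members that make up a small count (CDT1, KIF2C, IMPDH2, NOB1, HERPUD1, DNAJB9, MSMO1, FDFT1, CD74 and TFPI) were named after their values were seen, as was ATF4. Alternatives were DESeq2, limma-voom, other size factors and filters, fewer groups in the fit, the replicate number as a block, and leaving out each library. The correlation of deviations between same-numbered libraries at 120 h and 72 h was -0.048, 0.012 and 0.011. It gives weakly expressed genes, which vary by counting alone, the same weight as others, so it cannot exclude a pairing.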

Additional observations from a re-analysis of the deposited data

Results flagged for a closer look

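The change between 72 h and 120 h differed between DMSO and ATRA cells for 9021 genes by the test of the difference (edgeR's quasi-likelihood test, Benjamini-Hochberg adjusted p under 0.05). Of the genes singled out for this comparison, a core set and those with the largest difference, the following passed; each value is the DMSO change minus the ATRA change on the log2 scale, from 3 libraries a group. The change was more upward in DMSO cells for STC1 (8.05), GOLGA8CP (7.46), VAT1L (7.11), GOLGA8DP (6.16), RNU6ATAC (5.97), EGR3 (5.79), MPO (3.91), CCND2 (3.09), TFRC (0.97), CDKN1A (0.92), MYC (0.89), HMGCS1 (0.88), DDIT4 (0.86), CYBB (0.79), MKI67 (0.73) and CD38 (0.28). It was more downward in DMSO cells for TXNIP (-0.46), VEGFA (-0.47), ITGAM (-0.83), ASNS (-1.05), HK2 (-1.58), SLC7A11 (-1.97), HMOX1 (-3.50), S100B (-5.65), SLC26A11 (-5.69), CNR2 (-6.08), PTX3 (-6.20), GPR82 (-6.54) and IGSF6 (-7.36). More upward or downward describes the difference only: TXNIP rose by 0.68 in DMSO cells and by 1.13 in ATRA cells. In DMSO cells MPO changed by 0.12, S100B by 0.05, GOLGA8DP by -0.03, SLC7A11 by -0.03 and ITGAM by -0.05. In ATRA cells these 5 genes changed by -3.79, 5.70, -6.19, 1.93 and 0.78, in that order. STC1, GPR82, IGSF6 and SLC26A11 were below 1 CPM in every DMSO library at both times, so their difference rests on ATRA cells. VAT1L and GOLGA8CP were at 0 in all 3 ATRA libraries at 120 h, so their fitted differences depend on the prior count and are no bound. GOLGA8CP and GOLGA8DP have near-identical copies and are uncertain. The difference for TXNIP and for CD38 did not pass in several alternatives, among them the leaving out of replicate 5 at 72 h in DMSO cells.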

How the results depend on the processing

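Every count over all tested genes stayed within 1.5 times its main value under each alternative run. Genes higher at 120 h than at 72 h numbered 5078, and between 4433 and 5205 under other size factors, filters, tools, groups in the fit and blocks. Genes lower numbered 4301, and between 4091 and 4705. Leaving out a library, or replicate 2 throughout, gave 3971 to 4943 higher and 2923 to 4195 lower genes. It gave 10184 to 11331 genes for 72 h against 24 h, 3464 to 4611 for 120 h against 24 h, and 6949 to 8753 for the difference of the DMSO and ATRA changes. The excess of higher over lower genes was not stable. With RLE size factors 4650 were higher and 4641 lower, and with only untreated and DMSO groups 4433 and 4448. Without replicate 4 at 72 h 3971 were higher and 4195 lower, and without replicate 5 at 72 h 4010 and 4133. With the replicate number as a block, 4940 genes were higher and 4705 lower in the fit of the groups of the comparison alone. In the fit of all libraries the block gave 5205 and 4430. Whether same-numbered samples are paired is not settled by the correlation of their deviations.

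Of 125 named genes that passed, not counting cell type markers and members named only for a small count, 122 passed in each of 17 alternatives, all but CDKN1B, TGM2 and CAMK2B. Many of these genes were chosen for a small p or a large change in this same comparison. Their share therefore says little about the other genes that passed. CDKN1B was also lost with no filter on low counts (adjusted p = 0.129). Among named genes that did not pass, cell type markers, ATF4 and genes named only for a motif are not counted here. Of the remaining 8, DDIT4 passed in 4 alternatives, with an adjusted p of 0.00268 to 0.0322, and 4 others changed sign when libraries were left out. Their log2 changes then lay between -0.0997 and 0.0851 for RAP1A, -0.1093 and 0.0979 for SLC7A11, -0.0036 and 0.0762 for NCF4, and -0.152 and 0.0152 for ITGAM. Without a library being left out, members of the interferon list that rose numbered 5 with RLE size factors, those of the mitochondrially encoded list 2 with DESeq2 and 9 with no filter on low counts, and heat shock genes that fell 5 in the fit of the groups of the comparison alone. Genes with few fragments have the least precise folds. The causes of these shifts were not tested.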
